A study of Mus musculus with 6 samples.

Results

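The chemokine and chemokine receptor genes of the array, 58 of its 31791 gene names, were read in LSK-SLAM cells sorted from mice that had received a second transplant, of WT (2T-WT) or p190-B-/- (2T-p190-B-/-) origin. They were chosen by the gene name of non-control probes alone. A name had to start with Cx3c or with Ccl and a number, or to be Cxcl, Ccr or Cxcr with a number. Ccrl1, Ccrl2, Xcl1 and Xcr1 were also taken. This gave 37 ligand genes and 21 receptor genes, with 71 of the 39429 non-control probes on 80 spots, and 11 of the genes had several probes. By accession, 67 of the 71 probes matched a gene in RefSeq (build GRCm38.p6), in which Cxcr7 is now called Ackr3 and Ccrl1 is called Ackr4. The 4 that did not match are both Cxcl11 probes, the brightest Ccrl1 probe and the dimmer Ccr9 probe.

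LSK-SLAM cells are Lin- c-Kit+ Sca-1+ CD150+ CD48- marrow cells, a population enriched for HSC. The donor cells were CD45.2+ and came from fetal livers of p190-B-/- embryos or of their WT littermates, bred on C57BL/6J. Competitor marrow given with them was CD45.1+, as were the congenic hosts of both rounds, all lethally irradiated. The second round of hosts received marrow of the first. RNA of cells sorted from 3 2T-WT and 3 2T-p190-B-/- samples was amplified as cDNA and hybridised in 1 colour (Cy3) to 6 Agilent whole mouse arrays. The question put to the arrays was which genes differ between the genotypes after serial transplantation. The sort described in the labels names no marker of donor cells, so the share of competitor or host cells in a sample was not tested, and the ages of the hosts are not given in the sources used here. The study describes sorts from independent mice on independent occasions, which does not settle whether an array holds cells of 1 mouse or of several, so each p-value measures only the spread between these samples.

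Chemokines are small secreted proteins that direct the migration of blood cells through G protein-coupled receptors. In marrow, CXCL12 from stromal cells retains HSC through CXCR4, while the atypical receptor CXCR7 binds the same ligand without G protein signalling. Inflammatory CC ligands such as CCL2 draw monocytes out of the marrow through CCR2, CXC ligands such as CXCL1 draw neutrophils through CXCR2, and CXCL9 is induced by interferon and acts on T and NK cells through CXCR3.

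A level is given as the log2 of a probe's processed signal, a background-corrected brightness, less the log2 of the 75th percentile of that signal on the same array, so that 0 is this percentile. Levels of each genotype stand in the order of replicates 1, 2 and 3, and a difference is the mean of 2T-p190-B-/- minus the mean of 2T-WT (n = 3 each). The 75th percentile itself was 125, 227 and 53.9 in 2T-WT and 385, 321 and 252 in 2T-p190-B-/-, so every 2T-p190-B-/- array was the brighter before scaling. The arrays lie on 3 slides: 2T-WT replicate 1 is alone on slide 1, 2T-p190-B-/- replicate 3 is alone on slide 3, and the other 4 arrays share slide 2. A fit with the slide as a block therefore gives the difference within slide 2, between 2 arrays of each genotype, and this value is given beside the differences of single chemokine and receptor genes.

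Arhgap5, the gene that encodes p190-B, stayed near background in 2T-WT, where no array called it, at −4.74, −5.55 and −4.44. On 2T-p190-B-/- arrays it stood at −5.46, −2.71 and −6.01 and was above background only on replicate 2. Its probe therefore gives no check of the genotypes. Among the genes that define the sort, Kit was above background on 5 of 6 arrays, all but 2T-WT replicate 3, and Ly6a (Sca-1) on 6. Slamf1 (CD150) and Procr, a surface marker of HSC, were at background on all 6 arrays, so these probes do not show the sorted phenotype. Cd48, which the sort selects against, was above background on all 6 arrays, at 2.02, 0.09 and −1.41 in 2T-WT and 0.38, 0.96 and 2.05 in 2T-p190-B-/-. Of the 15 HSC genes listed, 7 were above background on all 6 arrays and 2 on none.

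Many chemokine genes were detected in these cells, and about as often as other genes of the same array. Chemokine and receptor probes well above background numbered 29, 48 and 33 of 71 on the 2T-WT arrays, or 40.8%, 67.6% and 46.5%. On the 2T-p190-B-/- arrays they numbered 52, 34 and 45, or 73.2%, 47.9% and 63.4%. Over all non-control probes the shares were 48.6%, 66.9% and 50.7% in 2T-WT and 73.3%, 53.2% and 64.4% in 2T-p190-B-/-, so the members' share went up and down with that of the array. Ligand probes above background numbered 21, 31 and 20 of 45 in 2T-WT and 33, 26 and 29 in 2T-p190-B-/-, and receptor probes 8, 17 and 13 of 26 in 2T-WT and 19, 8 and 16 in 2T-p190-B-/-. All 6 arrays detected 21 member probes (29.6%, against 34.9% of all probes), and 13 were at background on every array (18.3%, against 16.8%).

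**Figure D1:**
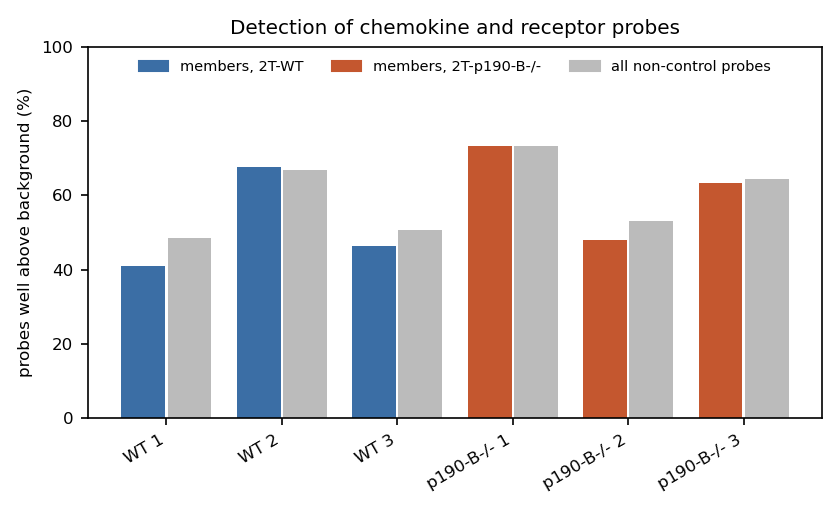
Share of probes well above background (y axis, percent) on each of the 6 arrays (x axis), for the 71 chemokine and receptor probes (coloured by genotype) and for all non-control probes (grey). The members' share follows that of the array, from 40.8% on 2T-WT replicate 1 to 73.2% on 2T-p190-B-/- replicate 1.

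By gene, 19 had a probe above background on all 6 arrays, 15 ligands and 4 receptors. The ligands were Ccl2, Ccl5, Ccl6, Ccl8, Ccl17, Ccl19, Ccl21b, Ccl24, Ccl25, Ccl27a, Cxcl1, Cxcl5, Cxcl9, Cxcl11 and Cxcl12, and the receptors Ccr6, Ccr8, Ccr9 and Cxcr2. No probe was above background on any array for 10 genes: the ligands Ccl3, Ccl4, Ccl11, Ccl20, Ccl28, Cxcl2, Cxcl3 and Cxcl15, and the receptors Ccr1 and Cxcr7. For Ccl3, Ccl4 and Ccr1, which serve monocytes and granulocytes, and for the neutrophil attractants Cxcl2 and Cxcl3, the arrays thus give no level. Between these extremes, 9 probes were above background on exactly 1 array, 5 of them on 2T-p190-B-/- replicate 1 and 2 on 2T-WT replicate 2.

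**Figure D2:**
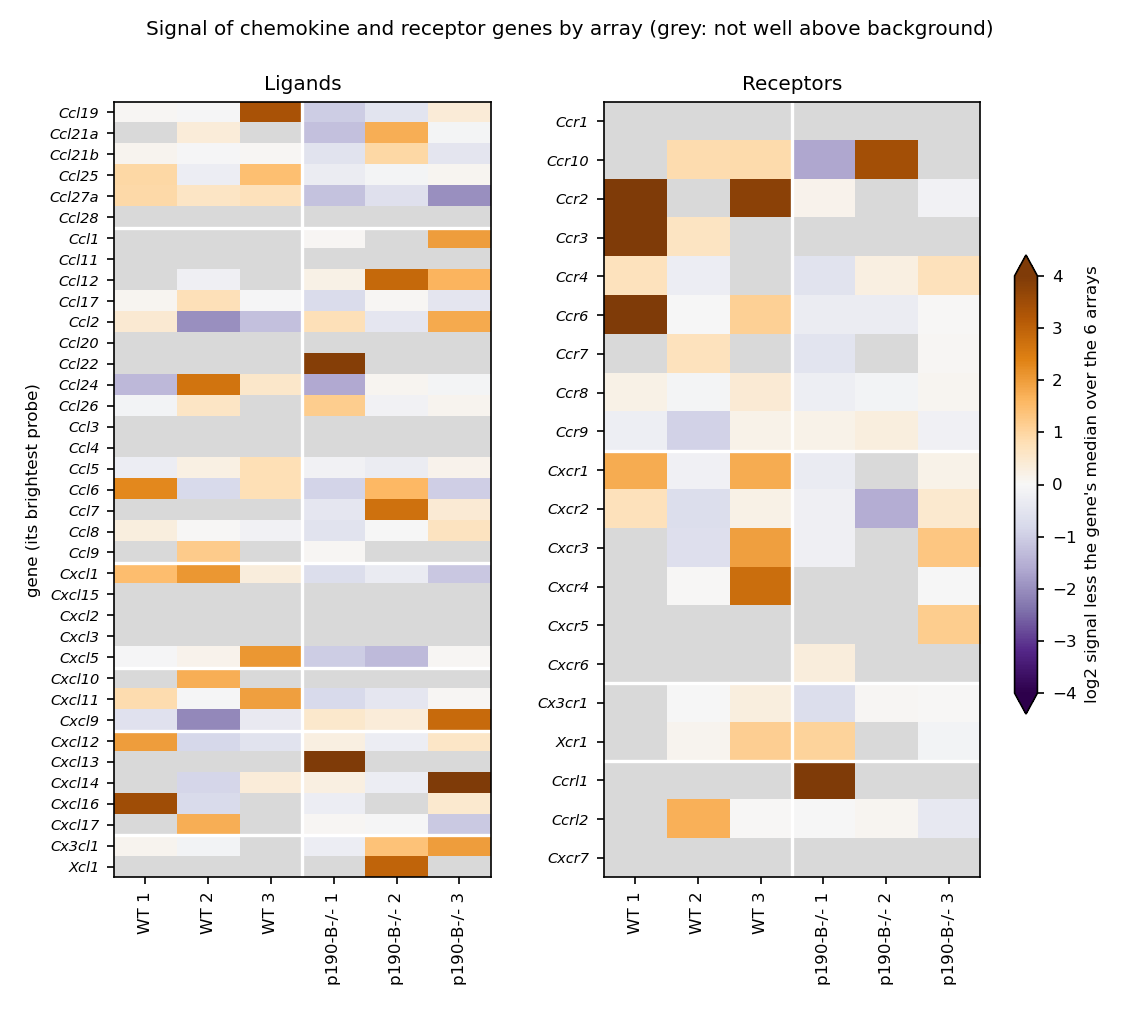
Signal of the brightest probe of all but 1 of the 58 genes (lines) on each array (columns), as the log2 signal less the gene's own median over the 6 arrays. Grey marks arrays where the probe was not well above background, and white lines part the role groups and the genotypes. Colours compare arrays along 1 line and not genes, and most lines mix high and low arrays within a genotype.

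The comparison of the genotypes gave 0 chemokine or receptor probes with an adjusted p under 0.05 by limma, and 0 of all 25127 probes tested. To be tested, a probe needed a call above background from 3 or more of the 6 arrays, which 44 of the 71 member probes were, so 27 were not tested. A level at background is printed as read, and an order or a difference that rests on such levels is not exact. At an unadjusted limma p under 0.05 there were 4 member probes of 44, 2 higher and 2 lower in 2T-p190-B-/-, where all probes gave 1654 or 6.58%, 3.19% higher and 3.39% lower, and none of these 4 had it with the slide as a block. On the same values the methods' t-test gave 3 member probes and 1783 of all probes with an unadjusted p under 0.05, and 0 after Benjamini-Hochberg adjustment. Groups did not overlap for 5 member probes or 11.4%, 2 higher and 3 lower in 2T-p190-B-/-, where all probes gave 16.3%, 4.53% higher and 11.7% lower. Both counts are small, and no result about the members is read from them. Ccl12 is in both, and its 2T-p190-B-/- arrays, where it is higher, met the detection filter by themselves. The smallest adjusted p of a member was 0.638.

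Differences in either direction were large, but so was the spread between arrays of 1 genotype. The median difference was −0.36 over the 44 member probes and −0.33 over all probes tested, and 21 members lay above that median and 23 below. Taking for each gene its brightest probe, 38 of the 58 genes were tested, 11 higher and 27 lower in 2T-p190-B-/-, with differences from −2.47 to 2.65. Over all 25127 probes tested, 9864 were higher and 15263 lower. Under other scalings the split was 15 higher and 23 lower after quantile normalization, 15 and 23 with the value table of the authors, and 9 and 29 with normexp. These scalings also moved the median over all probes, to −0.10, −0.21 and −0.47 in that order, so a difference is best read against −0.33. Ligands (23 of 37 tested, 8 higher and 15 lower) had a median of −0.36, which was 0.07 after quantile normalization, −0.09 without 2T-WT replicate 1, −0.13 without 2T-WT replicate 2 and −0.56 without 2T-p190-B-/- replicate 2. Receptors (15 of 21 tested, 3 higher and 12 lower) had a median of −0.51 (−0.89 with normexp), negative under each scaling, with 7 above and 8 below the median of all probes. Leaving out 2T-WT replicate 3 gave −0.16, leaving out 2T-WT replicate 1 gave −0.80, and leaving out 2T-p190-B-/- replicate 2 gave −0.26. In these bulk samples, fewer cells that express a gene and less of its RNA per cell cannot be told apart.

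**Figure D3:**
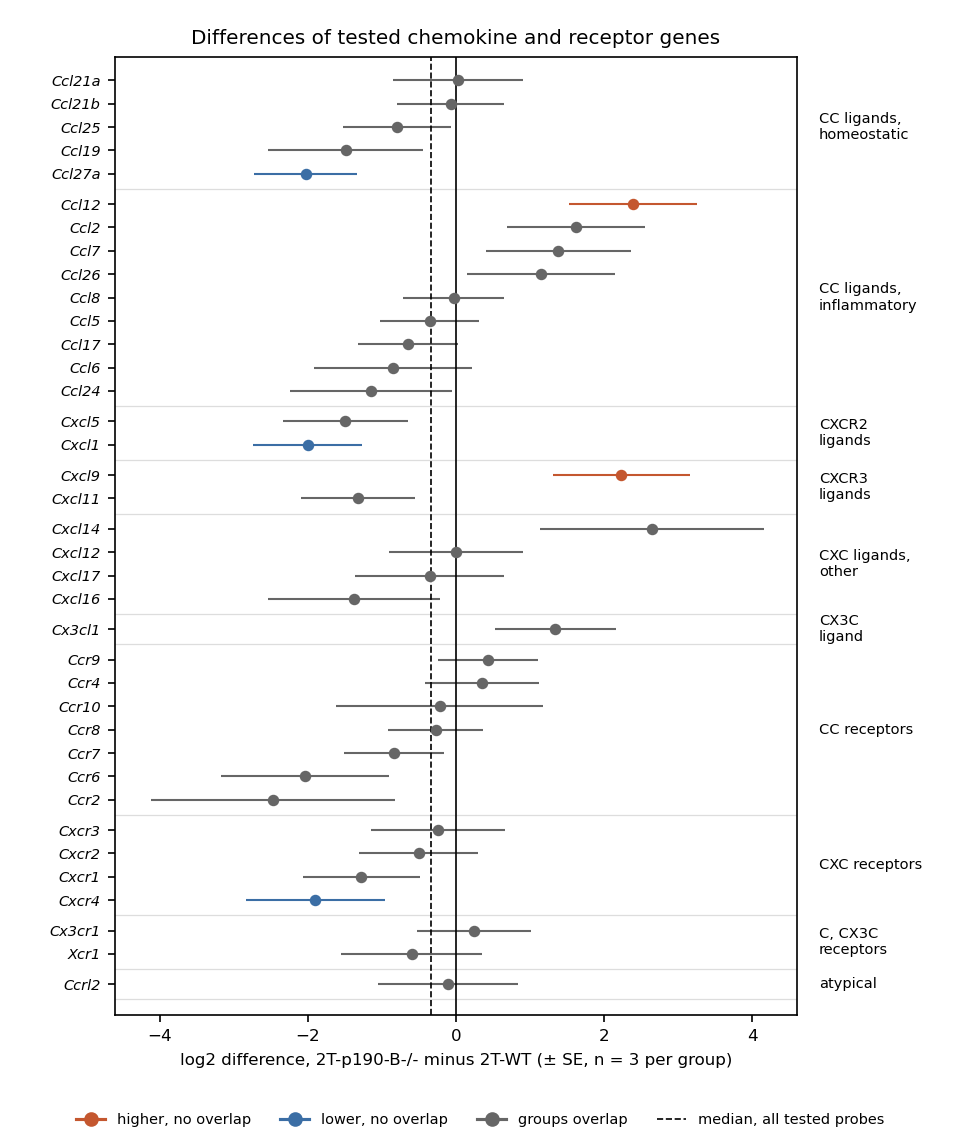
Log2 difference, 2T-p190-B-/- minus 2T-WT, with its standard error from limma (x axis; n = 3 per group) for all but 1 of the 38 tested chemokine and receptor genes (y axis), grouped by role. The dashed line is the median of all tested probes, −0.33, and colours mark the 5 genes whose groups do not overlap. None passed the test after adjustment, and Ccl12 with normexp and Cxcr4 after quantile normalization or with the value table of the authors overlap.

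The 5 genes whose groups did not overlap were the ligands Ccl12, Cxcl9, Cxcl1 and Ccl27a and the receptor Cxcr4. Cxcr4 lost this after quantile normalization and with the value table of the authors, and Ccl12 with normexp. Of the 58 genes, 43 have a promoter in the RefSeq table of GRCm38.p6, which holds 32851 promoters of 300 bases each, and 49 of these belong to chemokine or receptor genes. Of those 5 genes, 4 have a single promoter there, and these are printed 5′ to 3′ on the strand of the gene. They are given as a description only, since 11.4% of the member probes tested did not overlap, against 16.3% of all probes. Ccl12 is at chr11:82101595-82101894 (plus strand), Cxcl9 at chr5:92328030-92328329 (minus strand), Cxcl1 at chr5:90890995-90891294 (plus strand) and Cxcr4 at chr1:128592250-128592549 (minus strand). Capitals mark matches on either strand, at any position, to TATAAA (the sequence of the TATA box) and the NF-κB consensus. They also mark GAAANNGAA (found in interferon response elements), TTCNNNGAA (bound by STAT factors) and TGANTCA (bound by AP-1).
Ccl12: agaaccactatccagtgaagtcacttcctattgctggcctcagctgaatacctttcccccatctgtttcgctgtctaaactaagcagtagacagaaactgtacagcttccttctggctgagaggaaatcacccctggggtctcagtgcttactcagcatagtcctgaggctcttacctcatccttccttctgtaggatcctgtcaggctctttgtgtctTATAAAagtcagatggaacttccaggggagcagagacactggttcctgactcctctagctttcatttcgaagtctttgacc
Cxcl9: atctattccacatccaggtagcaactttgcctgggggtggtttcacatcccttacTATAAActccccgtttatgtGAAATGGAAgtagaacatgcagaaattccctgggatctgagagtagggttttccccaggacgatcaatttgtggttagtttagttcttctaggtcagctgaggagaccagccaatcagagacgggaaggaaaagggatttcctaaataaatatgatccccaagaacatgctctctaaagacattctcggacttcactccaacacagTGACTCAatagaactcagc
Cxcl1: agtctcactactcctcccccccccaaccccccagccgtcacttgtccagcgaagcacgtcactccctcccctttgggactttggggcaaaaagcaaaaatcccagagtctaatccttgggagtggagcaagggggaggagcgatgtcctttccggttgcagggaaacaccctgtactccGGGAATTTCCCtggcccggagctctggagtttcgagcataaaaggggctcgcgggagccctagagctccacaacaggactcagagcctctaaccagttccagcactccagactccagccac
Cxcr4: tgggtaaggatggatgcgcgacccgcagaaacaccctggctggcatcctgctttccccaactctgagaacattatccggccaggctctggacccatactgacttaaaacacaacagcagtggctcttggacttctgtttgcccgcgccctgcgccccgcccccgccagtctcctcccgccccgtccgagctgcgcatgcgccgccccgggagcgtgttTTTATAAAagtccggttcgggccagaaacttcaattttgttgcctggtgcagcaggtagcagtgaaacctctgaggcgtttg
Ccl12 holds 1 TATAAA, at bases 220 to 225. Cxcl9 holds a TATAAA at bases 56 to 61, a GAAANNGAA at 76 to 84 and a TGANTCA at 282 to 288. In the Cxcl1 promoter the capitals are 2 overlapping NF-κB matches on opposite strands, at bases 180 to 189 and 181 to 190, and in that of Cxcr4 they are 2 overlapping TATAAA matches, at 219 to 224 on the minus strand and 221 to 226. A match is a description of these letters and does not show that a factor binds.

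Across all member promoters the NF-κB consensus was found in 10 of 49 (20.4%), in 7 of 29 ligand and 3 of 20 receptor promoters, against 4.51% of all 32851. Cxcl1, Cxcl2, Cxcl3, Cxcl10 and 1 of the Ccr6 promoters each held 2 matches. TATAAA was in 13 of 49 (26.5%, against 13.6% of all), GAAANNGAA in 8 (16.3%, against 8.56%), TGANTCA in 7 (14.3%, against 7.81%) and TTCNNNGAA in 3 (6.12%, against 8.30%). Of the 10 genes with the NF-κB consensus, Cxcl1, Ccl27a, Ccr6 and Ccrl2 were tested and had no adjusted p under 0.05. Cxcl2, Cxcl3 and Ccl20 were at background on every array, and Ccl9, Ccr3 and Cxcl10 were above it on too few to be tested.

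Among inflammatory CC ligands, 9 of 16 genes were tested, 4 higher and 5 lower, with a median difference of −0.03 that was 0.07 after quantile normalization, 0.09 with the value table of the authors and −0.34 with normexp. The 4 include Ccl7, which was tested only through its 2T-p190-B-/- arrays. Ccl12, a mouse ligand of CCR2 that attracts monocytes, had levels of −4.49, −3.50 and −4.42 in 2T-WT and −3.12, −0.46 and −1.67 in 2T-p190-B-/-. All 3 2T-p190-B-/- arrays were well above background and above every 2T-WT array, of which only replicate 2 measured the probe, and replicate 2 of 2T-p190-B-/- was the highest. Those 3 arrays, of the group where Ccl12 is higher, met the detection filter by themselves, so its test gives no support for a difference. The difference was 2.39 (SE 0.86; adjusted p = 0.638 by limma), 2.72 above the median of all probes and 2.17 within slide 2. For a bound, an array of the lower group that did not measure a probe was set to the lowest signal it called above background, or to the probe's own signal if higher. By this bound Ccl12 was at least 2.01-fold higher in 2T-p190-B-/-, or 1.29-fold without 2T-p190-B-/- replicate 2. With normexp, another background correction, its difference was −0.25, and leaving out single arrays gave 1.74 to 3.07.

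Ccl2, the main attractant of monocytes through CCR2, was above background on all 6 arrays, at 2.26, −0.20 and 0.56 in 2T-WT and 2.55, 1.32 and 3.60 in 2T-p190-B-/-. Replicates 1 and 3 of 2T-p190-B-/- were above every 2T-WT array, while replicate 2 lay below 2T-WT replicate 1, so the groups overlap here, though not with normexp, where the difference was 1.98. The difference was 1.62 (SE 0.93; adjusted p = 0.638 by limma), 1.76 within slide 2, and 1.06 (without 2T-p190-B-/- replicate 3) to 2.31 when single arrays were left out.

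Ccl7, another monocyte attractant, was the 1 member probe above background on all 3 2T-p190-B-/- arrays and on no 2T-WT array, a pattern of 0.743% of all probes, while 0 members and 0.0558% of all probes showed the opposite one. Its levels were −3.60, −5.36 and −4.15 in 2T-WT and −4.33, −1.19 and −3.45 in 2T-p190-B-/-. Replicate 1 of 2T-p190-B-/- nevertheless lay below 2 of the 2T-WT arrays, because the level called above background differs between arrays. Ccl7 passed the filter only through its 2T-p190-B-/- arrays, the group where it is higher, so its test is not reported. As read, its difference was 1.38, or 2.00 within slide 2 and −0.71 with normexp. It was 0.48 (without 2T-p190-B-/- replicate 2) to 2.05 without single arrays, and no bound above 1-fold can be given.

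Ccl2, Ccl7, Ccl11, Ccl12, Ccl8 and Ccl1 lie side by side on chromosome 11, with probes from 81850650 to 81990227 in build mm9. Of these 6 neighbours 4 were tested, with Ccl2, Ccl12 and Ccl7 higher and Ccl8 lower, while with normexp 1 was higher and 3 lower. Ccl7 was tested only through its 2T-p190-B-/- arrays, and those of Ccl12 met the filter by themselves. No median is therefore given for these genes, and no conclusion is drawn from their count. Ccl8, the 1 that was lower, stood at −1.28, −1.54 and −1.70 in 2T-WT and at −2.12, −1.58 and −0.90 in 2T-p190-B-/-, overlapping groups with a difference of −0.03 that turned to 0.07 after quantile normalization, to 0.09 with the value table of the authors (−0.58 with normexp) and to 0.26 without 2T-p190-B-/- replicate 1, and was −0.23 within slide 2 and −0.35 without 2T-p190-B-/- replicate 3. Ccl11, an eosinophil attractant, was at background throughout, and Ccl1 was above it only on 2T-p190-B-/- replicates 1 and 3. As read, Ccl1 was nevertheless higher on 2T-WT replicate 1, at −2.79, than on 2T-p190-B-/- replicate 1, at −3.81. The next cluster on the chromosome, Ccl5, Ccl9, Ccl6, Ccl3 and Ccl4 from 83339296 to 83478111, had 2 genes tested, both lower, with a median of −0.61 that was −0.24 with normexp, where 1 was higher.

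**Figure D4:**
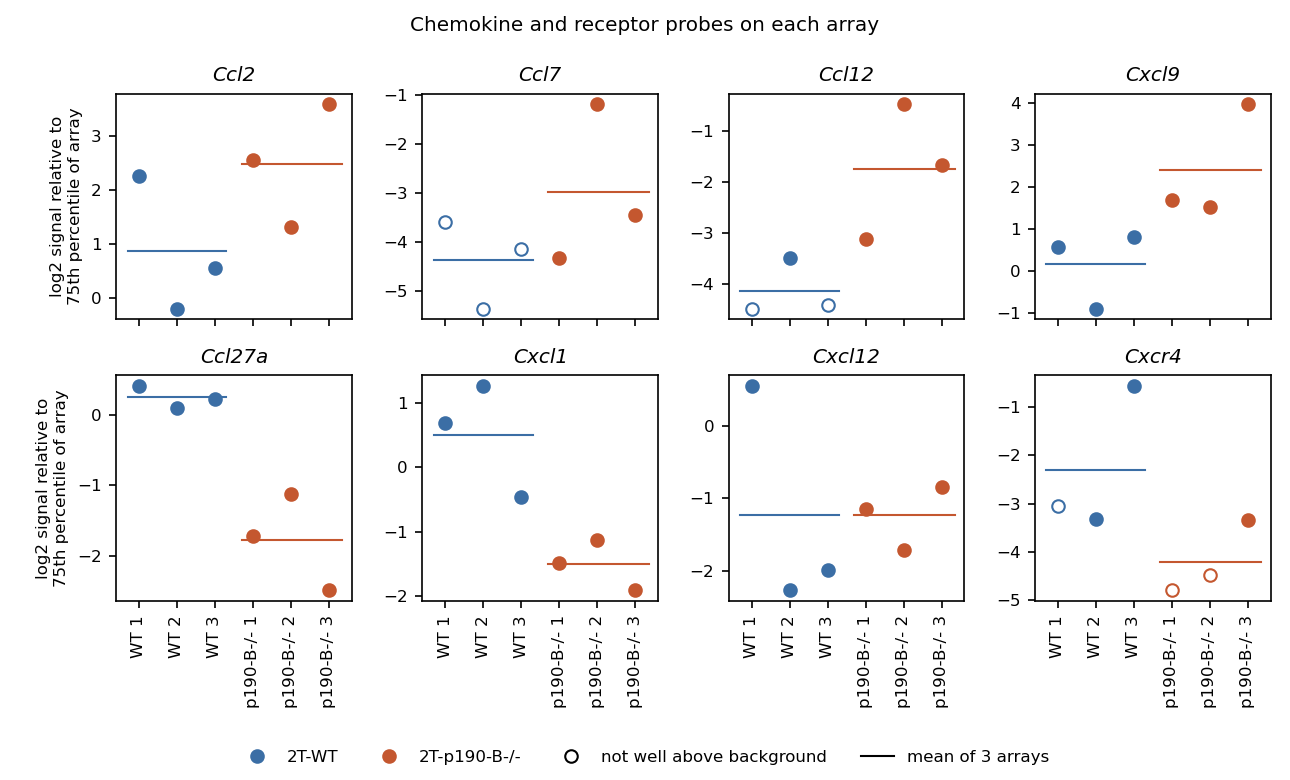
Levels of 8 chemokine and receptor probes on each array (y axis, log2 signal relative to the array's 75th percentile; x axis, arrays). Filled points were well above background, open points were not, and lines are means of 3 arrays. Ccl12 and Cxcl9 were higher and Ccl27a, Cxcl1 and Cxcr4 lower in 2T-p190-B-/- without overlap, except that Ccl12 was lower with normexp and Cxcr4 overlaps after quantile normalization or with the value table of the authors, and Ccl2 (except with normexp), Ccl7 and Cxcl12 overlap.

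Ccl5, which attracts T cells and monocytes, was at 1.66, 2.16 and 2.73 in 2T-WT and 1.77, 1.63 and 2.08 in 2T-p190-B-/-. Groups overlap, and the difference of −0.36, near the median of all probes, turned to 0.25 with normexp and was −0.74 within slide 2, −0.62 without 2T-WT replicate 1 and −0.08 without 2T-WT replicate 3. Ccl17, a ligand of CCR4, was at 0.51, 1.18 and 0.38 in 2T-WT and −0.31, 0.48 and −0.06 in 2T-p190-B-/-, a difference of −0.65 (−0.70 within slide 2, −0.34 with normexp, −0.41 without 2T-WT replicate 2). Only 2T-p190-B-/- replicate 2 reached the 2T-WT range. Ccl6, a myeloid CC ligand, was highest on 2T-WT replicate 1 (0.09, −3.01 and −1.42 in 2T-WT; −3.09, −0.62 and −3.19 in 2T-p190-B-/-), and its difference of −0.86 became 0.36 within slide 2, where that array has no part, and was −0.09 without it and −1.69 without 2T-p190-B-/- replicate 2. For Ccl24, an eosinophil attractant, 2T-WT replicate 2 stood out (−1.49, 2.52 and 0.42 in 2T-WT; −1.74, −0.04 and −0.21 in 2T-p190-B-/-), with a difference of −1.15 that was −0.13 without that array, −2.13 without 2T-WT replicate 1 and −2.36 within slide 2. None of these 4 genes has groups that part.

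Homeostatic CC ligands guide lymphocytes and thymocyte precursors to their organs, and 5 of 6 were tested, 1 higher and 4 lower, with a median of −0.80 that was −0.06 after quantile normalization. Ccl27a, a ligand of CCR10 known from skin, was at 0.42, 0.11 and 0.24 in 2T-WT and −1.72, −1.12 and −2.49 in 2T-p190-B-/-. Its 2T-WT arrays lay close together, and every 2T-p190-B-/- array was below them. The difference of −2.03 (SE 0.69; adjusted p = 0.638 by limma) is 4.09-fold, −1.70 relative to the median of all probes, −1.59 within slide 2 and −2.36 to −1.67 without single arrays. A second Ccl27a probe, above background on 4 arrays, differed by −0.63 with overlapping groups (−0.93 within slide 2, −0.94 without 2T-WT replicate 1, −0.22 without 2T-WT replicate 3), and another was above background on only 2 arrays and not tested.

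Ccl19, a ligand of CCR7, showed how far probes of 1 gene can differ. Its brightest probe stood at 2.71, 2.64 and 6.0 in 2T-WT and 1.65, 2.16 and 3.08 in 2T-p190-B-/-, a difference of −1.49 that rests mainly on 2T-WT replicate 3 and was −0.38 without it, −0.72 with normexp and −2.42 within slide 2. The next brightest probe of Ccl19 differed by −0.25 (−0.05 within slide 2, −0.40 without 2T-p190-B-/- replicate 2, −0.09 without 2T-p190-B-/- replicate 3). Its dimmest probe was at −0.38, −0.79 and −2.79 in 2T-WT and 2.20, −0.02 and −0.69 in 2T-p190-B-/-, a difference of 1.82 in the other direction (2.88 within slide 2, 0.97 without 2T-p190-B-/- replicate 1). In the mouse, Ccl19, Ccl21 and Ccl27 genes lie in a duplicated stretch of chromosome 4 with near-identical copies, so a probe may read more than 1 copy. Ccl21b, a CCR7 ligand of lymphoid tissue, was even in 2T-WT (0.47, 0.33 and 0.41) and spread in 2T-p190-B-/- (−0.19, 1.31 and −0.13), with a difference of −0.07 that turned to 0.07 with normexp, 0.05 with the value table of the authors and 0.19 within slide 2. Leaving out replicate 2 of 2T-p190-B-/- made it −0.56, and leaving out replicate 1 made it 0.19. Ccl25, the ligand of CCR9 that draws progenitors to the thymus, was at 5.59, 4.37 and 6.11 in 2T-WT and 4.36, 4.58 and 4.72 in 2T-p190-B-/-. The 2T-p190-B-/- arrays lay close together at the level of 2T-WT replicate 2, so the groups overlap, and the difference of −0.80 (−0.77 within slide 2) was 0.19 after quantile normalization and 0.22 with normexp, −1.29 without 2T-WT replicate 2 and −0.43 without 2T-WT replicate 3. Its second probe differed by −1.35 (−2.55 within slide 2, −0.48 without 2T-WT replicate 3).

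Of the ligands of CXCR2, the neutrophil attractants, Cxcl1 and Cxcl5 were tested and Cxcl2, Cxcl3 and Cxcl15 were at background on all arrays. Cxcl1 was at 0.69, 1.27 and −0.46 in 2T-WT and −1.48, −1.13 and −1.91 in 2T-p190-B-/-. Every 2T-p190-B-/- array was below every 2T-WT array, with 2T-WT replicate 3 the nearest. The difference was −2.00 (SE 0.74; adjusted p = 0.638 by limma), or 4.01-fold, −1.67 relative to the median of all probes and −1.71 within slide 2, and it ranged from −2.48 to −1.62 without single arrays. Cxcl5 stood at −1.04, −0.84 and 1.1 in 2T-WT and −2.01, −2.31 and −0.94 in 2T-p190-B-/-. Its groups overlap at 1 array, replicate 3 of 2T-p190-B-/-, though not with normexp or the value table of the authors, and it differed by −1.49 (−2.29 within slide 2, and −0.81 without 2T-WT replicate 3). Both genes lie in 1 cluster on chromosome 5 with the 3 that were at background, and both were lower under every scaling tried.

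Of the CXCR3 ligands, Cxcl9 and Cxcl11 were tested. Cxcl9, induced by interferon gamma, was at 0.57, −0.91 and 0.81 in 2T-WT and 1.69, 1.51 and 3.97 in 2T-p190-B-/-. Its 2T-p190-B-/- arrays were all above the 2T-WT arrays, and replicate 3 was the highest by far. The difference was 2.23 (SE 0.92; adjusted p = 0.638 by limma), or 4.70-fold, 2.56 above the median of all probes, 1.65 within slide 2 and 1.44 (without 2T-p190-B-/- replicate 3) to 2.67 without single arrays. A second Cxcl9 probe was at background on all 6 arrays, so the result rests on 1 of 2 probes. Cxcl10, also induced by interferon, was above background only on 2T-WT replicate 2.

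Cxcl11 gave a level of 10.33, 9.40 and 11.41 in 2T-WT and 8.66, 9.01 and 9.51 in 2T-p190-B-/-, far above the 75th percentile on every array. Groups overlap, and the difference of −1.32 (−1.57 within slide 2; −1.18 for its second probe, or −1.45 within slide 2) became 0.09 after quantile normalization and was −0.35 with normexp. Without 2T-WT replicate 3 it was −0.80, and −0.78 for the second probe. RefSeq lists mouse Cxcl11 as a transcribed pseudogene, and neither probe matched a gene there by accession. Both probes carry a 16-base run that is found in promoters of the RefSeq table. Segments of 30 bases of the brighter and the second probe are printed, with that run in capitals.
Cxcl11 probe 1: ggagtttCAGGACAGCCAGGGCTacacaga
Cxcl11 probe 2: cttgaaaGGCAGAGGCAGGAGGAtctcttg
Allowing either strand, the first run occurs in 24 of the 32851 promoters and the second in 3. Of all 39429 probes, 467 (1.18%) hold a 16-base run found in at least 20 promoters, a limit set after these values were seen, and the 461 of them that were tested had a median difference of −1.29. Cxcr7, at background throughout, has the only other such member probe, with 27, and the other 69 member probes had under 10. Without Cxcl11, an alternative added after these values were seen, the ligand median was −0.21 over 22 genes. What the Cxcl11 probes bind was not tested.

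Homeostatic and other CXC ligands had 4 of 5 genes tested, with a median of −0.18 that was 0.00 after quantile normalization, −0.06 with the value table of the authors and −0.70 with normexp. Cxcl12, the retention factor of HSC, was at 0.55, −2.27 and −1.99 in 2T-WT and −1.15, −1.71 and −0.84 in 2T-p190-B-/-. Its 2T-p190-B-/- arrays lay between 2T-WT replicate 1 and the other 2T-WT arrays. The difference was −0.00 (SE 0.91; adjusted p = 1.00 by limma), 0.13 after quantile normalization, 0.12 with the value table of the authors and −0.28 with normexp, and it was 0.70 within slide 2, 0.89 without 2T-WT replicate 1, −0.52 without 2T-WT replicate 2 and 0.24 without 2T-p190-B-/- replicate 2. A second Cxcl12 probe was above background only on 2T-WT replicate 2. Cxcl14, expressed mainly in epithelia, stood at −3.30, −2.25 and −1.02 in 2T-WT and −1.10, −1.66 and 4.12 in 2T-p190-B-/-. Its difference of 2.65, the largest among members and chosen here after its value was seen, rests on 2T-p190-B-/- replicate 3: it was 0.81 without that array, 0.26 within slide 2 and 1.30 with normexp, and the bound of at least 5.30-fold higher was 1.49-fold without it. Cxcl13, which draws B cells to follicles, was above background on 2T-p190-B-/- replicate 1 alone, at 3.34 there and from −6.14 to −4.33 on the other arrays. Cx3cl1, the membrane-bound ligand of CX3CR1, differed by 1.34 (1.07 within slide 2, 0.35 with normexp, 0.86 without 2T-p190-B-/- replicate 3), with groups that overlap and 5 arrays above background.

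Of the 15 receptors tested, 12 were lower in 2T-p190-B-/-, and groups overlapped for all but Cxcr4. Most probes of the array were also lower, and 7 of these receptors lay above and 8 below the median of all probes. Cxcr4, through which CXCL12 holds HSC in the marrow, was at −3.06, −3.32 and −0.55 in 2T-WT and −4.80, −4.48 and −3.33 in 2T-p190-B-/-. Every 2T-p190-B-/- array lay below every 2T-WT array, though replicate 3 of 2T-p190-B-/- and replicate 2 of 2T-WT were nearly equal and the groups overlapped after quantile normalization and with the value table of the authors. The highest array was 2T-WT replicate 3. It was measured above background on replicates 2 and 3 of 2T-WT and on replicate 3 of 2T-p190-B-/- only. The other 3 arrays were at background, 1 of them of 2T-WT, so the size of the difference is not exact and no bound is given. As read it was −1.90 (SE 0.94; adjusted p = 0.638 by limma), −2.71 within slide 2 and −2.40 to −1.02 without single arrays, the smallest being without 2T-WT replicate 3. Cxcr7, the atypical receptor of CXCL12, was at background on all 6 arrays, from −5.31 to −4.28, and so has no level.

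The CC receptors had 8 of 10 genes tested, 2 higher and 6 lower, with a median of −0.55 (−0.92 with normexp). Ccr6, the receptor of CCL20 on B cells and dendritic cells, was at 2.83, −1.62 and −0.51 in 2T-WT and −1.91, −1.91 and −1.61 in 2T-p190-B-/-. A single array, 2T-WT replicate 1, stood far above the other 5, and the difference of −2.04 was −0.74 without it, −1.28 with normexp (then without overlap) and −0.84 within slide 2. Ccr8, a receptor of T cell subsets, varied little, at −1.44, −1.71 and −1.22 in 2T-WT and −1.88, −1.74 and −1.56 in 2T-p190-B-/-. Its difference of −0.27 (−0.35 within slide 2, −0.64 with normexp, −0.15 with the value table of the authors, −0.16 without 2T-WT replicate 3) is close to the median of all probes. Ccr9, the receptor for CCL25 on progenitors bound for the thymus, was at −1.05, −1.72 and −0.63 in 2T-WT and −0.64, −0.51 and −0.96 in 2T-p190-B-/-, with overlap and a difference of 0.43 (0.60 within slide 2, 0.14 without 2T-WT replicate 2, 0.68 without 2T-WT replicate 3) that was −0.04 with normexp. Ccr9 and Ccr4 were the CC receptors that were higher, and Ccr4, at 0.35 (0.51 within slide 2), was −0.46 with normexp, −0.06 without 2T-WT replicate 3 and 0.80 without 2T-WT replicate 1.

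Ccr2, the receptor for CCL2, CCL7 and CCL12, was uneven within both genotypes, at 1.05, −5.34 and 0.75 in 2T-WT and −2.92, −4.85 and −3.17 in 2T-p190-B-/-. Above background were 2 arrays of each genotype, all but replicate 2 of both, so the size of the difference is not exact and no bound is given. As read it was −2.47 (adjusted p = 0.640 by limma), −4.55 without 2T-WT replicate 2, −1.36 without 2T-WT replicate 1, −1.39 with normexp and −1.59 within slide 2. Ccr3, the eotaxin receptor of eosinophils, was above background on 2T-WT replicates 1 and 2 and on no 2T-p190-B-/- array, at 1.87, −3.47 and −3.23 in 2T-WT and −4.94, −4.77 and −4.93 in 2T-p190-B-/-. It was not tested, and 2T-WT replicate 1 stood far above the other 5 arrays. Ccr7 differed by −0.84 (−1.30 within slide 2), with groups that overlap here but not after quantile normalization, with normexp or with the value table of the authors. Ccr10 differed by −0.22, which turned to 0.01 within slide 2 and to 0.64 without 2T-p190-B-/- replicate 1, and was −0.64 with normexp, −0.10 with the value table of the authors and −1.89 without 2T-p190-B-/- replicate 2. Like the other genes outside the naming rule, Ccr2 and Ccr3 were chosen after their values were seen.

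Among CXC receptors 4 of 6 were tested and all 4 were lower, with a median of −0.89, and 1 lay above and 3 below the median of all probes. Cxcr2, the neutrophil receptor for CXCL1 and CXCL5, was at 1.47, 0.07 and 0.97 in 2T-WT and 0.54, −0.79 and 1.24 in 2T-p190-B-/-. Its groups overlap, and the difference of −0.51 (−0.64 within slide 2) was 0.01 with normexp and 0.05 without 2T-p190-B-/- replicate 2. Leaving out replicate 3 of 2T-p190-B-/- made it −0.96. Cxcr1 differed by −1.28 (−1.12 within slide 2, −1.93 without 2T-WT replicate 2) and Cxcr3 by −0.25 (−0.93 within slide 2, −0.89 with normexp, −0.13 with the value table of the authors, −0.82 without 2T-WT replicate 2, 0.48 without 2T-WT replicate 3). Cxcr5, the receptor for CXCL13, was above background on 2T-p190-B-/- replicate 3 alone, and Cxcr6 on replicate 1 alone. As read, Cxcr6 was nevertheless higher on 2T-WT replicate 3, at −2.11, than on 2T-p190-B-/- replicate 1, at −4.02. Cx3cr1 differed by 0.24 (−0.74 with normexp and then without overlap, −0.46 within slide 2, −0.35 without 2T-WT replicate 1, 0.61 without 2T-WT replicate 3). Xcr1 differed by −0.60 (−1.11 within slide 2, −1.07 with normexp, −1.30 without 2T-p190-B-/- replicate 1, 0.22 without 2T-p190-B-/- replicate 2). Of the atypical and related receptors, Ccrl2 differed by −0.11 (0.01 with the value table of the authors, −0.07 after quantile normalization, −0.89 with normexp and then without overlap, −0.84 within slide 2, −0.98 without 2T-WT replicate 1, 0.74 without 2T-WT replicate 2), and the brightest probe of Ccrl1, a scavenger of CCL19, CCL21 and CCL25, was at 3.09 on 2T-p190-B-/- replicate 1 and from −6.21 to −4.44 elsewhere. The other Ccrl1 probe, above background on 3 arrays, differed by 1.1 (0.53 within slide 2, 0.74 without 2T-p190-B-/- replicate 3, 1.65 without 2T-p190-B-/- replicate 2), with overlap. Above background were 3 arrays for Ccr7, 4 for Ccr10, Cxcr3 and Xcr1, and 5 for Ccr4, Cxcr1, Cx3cr1 and Ccrl2, so the sizes of their differences are not exact either.

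Of 43 known ligand and receptor pairs among the members, both partners had a probe above background on all 6 arrays for 4: Ccl8 with Ccr8, Ccl25 with Ccr9, and Cxcl1 and Cxcl5 with Cxcr2. For 18 pairs, no array detected both. Per array, 8, 19 and 10 pairs were complete in 2T-WT and 21, 7 and 19 in 2T-p190-B-/-, most on the arrays that detected most probes. Cxcl12 and Cxcr4 were detected together on 2 2T-WT arrays and 1 2T-p190-B-/- array, Ccl2 and Ccr2 on 2 of each, and Cxcl12 and Cxcr7 on none.

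The pathway behind the receptors was read from 3 gene lists, by the same brightest-probe rule, and by limma 0 of the genes had an adjusted p under 0.05. G protein subunits had 9 of 16 genes tested, 2 higher and 7 lower (median −0.23, or −0.05 with normexp), with 0 at an unadjusted p under 0.05. Genes of receptor desensitisation (arrestins, receptor kinases and RGS proteins) had 10 of 15 tested, 4 higher and 6 lower (median −0.26, or −0.13 after quantile normalization and −0.53 with normexp), also with 0. Effectors had 17 of 24 tested, 8 higher and 9 lower (median −0.43), with 2 at an unadjusted p under 0.05, both lower, where all probes gave 6.58%, 3.39% lower. These 2 were Bcar1 and Pik3r6. Neither had it with the slide as a block, nor did Pik3r6 with normexp. Groups did not overlap for 0, 1 and 4 genes of these lists, all of them lower, where all probes gave 16.3%, 11.7% lower.

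Of the effectors, Bcar1 (p130Cas), an adaptor of integrin and chemokine signalling to Rac, was at 5.99, 4.03 and 4.75 in 2T-WT and 2.72, 1.36 and 2.48 in 2T-p190-B-/-. All 3 2T-p190-B-/- arrays were below the 2T-WT arrays, and the difference was −2.74 (adjusted p = 0.638 by limma), −2.35 within slide 2 and −1.71 with normexp. Pik3r6, a regulatory subunit of PI3Kγ, which G proteins activate, was at 2.66, 2.04 and 3.20 in 2T-WT and 0.90, 0.89 and 1.36 in 2T-p190-B-/-. Here too the groups did not overlap, with a difference of −1.58 (adjusted p = 0.638 by limma), −1.72 within slide 2 and −0.80 with normexp. Of 13 further genes of the chemokine system, among them the platelet chemokines Pf4 and Ppbp, 8 were tested, 1 higher and 7 lower (median −0.93, or −0.37 after quantile normalization and −0.51 with normexp). Against the median of all probes, 3 of the 8 lay above and 5 below. Pf4 and Ppbp were above background only on 2T-WT replicate 2. NF-κB and its regulators had 14 of 17 genes tested, 5 higher and 9 lower (median −0.61), and groups did not overlap for 1 that was higher and 2 that were lower, where all probes gave 4.53% higher and 11.7% lower.

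Many chemokines and receptors are made by mature cells, so markers of other cell types were read on the same arrays. Of 16 monocyte and macrophage markers, 13 are on the array, 8 were above background on all 6 arrays and 10 were tested, 3 higher and 7 lower (median −0.56, or −0.23 after quantile normalization), and 4 above and 6 below the median of all probes. Their summed signal, in units of the array's 75th percentile, was 78.3, 83.4 and 167 in 2T-WT and 53.2, 52.3 and 38.8 in 2T-p190-B-/-, of which Csf1r made up the most, and 10.6, 28.9, 15.8, 15.1, 8.54 and 9.95 without it. Csf1r itself differed by −1.18, or 0.02 after quantile normalization and −0.11 with normexp. Cd14 was at 1.70, 1.03 and 2.03 in 2T-WT and −0.12, −0.52 and −1.12 in 2T-p190-B-/-, without overlap, a difference of −2.17 (−1.85 within slide 2, −1.35 with normexp), while other markers of the list were up to 1.42 higher. Neutrophil markers (10 of 12 tested, 3 higher and 7 lower, median −0.55) summed to 13.1, 15.6 and 8.16 in 2T-WT and 7.75, 8.52 and 25.3 in 2T-p190-B-/-, with Lcn2 the brightest gene (4.32, 9.90, 6.79, 5.34, 4.0 and 23.0 without it; 4.20, 9.73, 6.49, 5.11, 3.75 and 4.32 also without Mmp8) and S100a9 at background on all arrays.

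B cell markers (9 of 10 tested, 2 higher and 7 lower, median −1.43) included Cd79a at 9.47 on 2T-WT replicate 3 and from −4.89 to −1.65 on the other arrays (its difference was 0.26 without that array). Their sum was 145, 128 and 1056 in 2T-WT and 82.8, 91.9 and 115 in 2T-p190-B-/-, with Cd22 the brightest, and 6.34, 6.24, 726, 7.16, 5.15 and 6.66 without it. Leaving out Cd79a as well gave 6.27, 6.14, 15.1, 7.13, 5.06 and 6.34, so most of the 726 on 2T-WT replicate 3 was Cd79a. Cd22 itself differed by −0.99, or 0.22 after quantile normalization and 0.06 with normexp. T cell markers (8 of 10 tested, median −0.42; brightest Cd4) summed to 90.6, 42.3 and 142 in 2T-WT and 34.6, 32.0 and 56.1 in 2T-p190-B-/-, and to 19.0, 12.8, 8.10, 9.75, 8.76 and 15.6 without Cd4. Their median was −0.16 after quantile normalization and −0.13 with normexp. Cd4 itself differed by −1.20, or −0.06 after quantile normalization and −0.32 with normexp. Markers of NK cells (6 of 8 tested; brightest Prf1) had a median of −0.64 (−0.18 after quantile normalization and −0.32 with normexp), with Klrd1 and Gzmb at background. Dendritic cell markers (5 of 8; brightest Siglech) had one of −0.93, or −0.17 after quantile normalization and −0.35 with normexp. Basophil, mast cell and eosinophil markers (5 of 8; brightest Prg3) had a median of −0.11 that was 0.41 after quantile normalization, 0.01 with the value table of the authors and −0.23 with normexp, with Cpa3, Ms4a2 and Fcer1a at background. Erythroid markers (5 of 10; brightest Ermap) had one of 0.11, or −0.48 with normexp, and megakaryocyte markers (3 of 8; brightest Gp1bb) one of 0.05, or 0.50 with normexp.

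Stromal and endothelial markers, of the cells that make most CXCL12 in marrow, had 8 of 12 genes tested, 2 higher and 6 lower (median −0.42). Their sum was 20.7, 24.5 and 17.9 in 2T-WT and 12.5, 18.1 and 33.0 in 2T-p190-B-/-, with Kdr the brightest gene (9.17, 11.8, 3.80, 4.70, 3.96 and 5.96 without it), and Pdgfra and Pdgfrb at background on all arrays. Emcn, an endothelial and HSC surface gene, was at −0.87, −0.59 and −2.30 in 2T-WT and −3.35, −3.90 and −3.67 in 2T-p190-B-/-, without overlap, measured above background on 2 2T-WT arrays and 1 2T-p190-B-/- array. Its difference as read, −2.39, was the lowest of the list. It was the 1 gene of the 8 without overlap, where all probes gave 16.3%. Lepr and Kdr were higher, by 0.38 and 0.18. The part of other cells in the chemokine and receptor values was not tested.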

How the data were processed

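The scanner files of the 6 arrays were read as deposited, with intensity values that the authors made with Feature Extraction 10.5.1.1, background-corrected per spot. The value table of the authors was deposited as a ratio of each intensity to the median of its array, and served only as an alternative. Outlier spots (296 to 509 an array) were removed, and no spot was saturated. Each intensity was scaled by the 75th percentile of its array and put on a log2 scale, with the spots of a repeated probe averaged. A probe counted as detected where at least 0.5 of its spots were well above background, and was tested when detected on 3 arrays or more with 2 values in each group. Groups were compared with limma 3.58.1 in R 4.3.3 (lmFit and eBayes, Benjamini-Hochberg over all tested probes), by code tested on simulated data. The smallest exact two-sided p for 3 against 3 samples is 0.1.

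For each gene the probe with the highest mean signal was used, and genes were named by rule: Cxcl12, Cxcr4 and Cxcr7, genes whose brightest probe was detected on all 6 arrays, those whose groups parted by at least 2-fold or had an unadjusted p under 0.05, and those detected on 3 arrays of 1 group and 0 of the other. The members, the gene lists and the genes named were chosen with earlier results of these data known. Alternatives were quantile normalization, normexp background correction, no detection filter, detection on all 6 arrays, the value table, blocks for slide or replicate, a variance trend with robust variance, another detection call, the methods' t-test and leaving out each array. Values of 1 member gene, 1 signalling list and some markers are not reported here.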

Additional observations from a re-analysis of the deposited data

How the results depend on the processing

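The comparison was repeated under 15 other settings, by limma or by the methods' t-test, and all of them gave 0 adjusted calls among all probes and among chemokine and receptor probes. The smallest adjusted p of a member in any setting was 0.274, without 2T-WT replicate 2. The cause of the changes was not tested.

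Unadjusted calls over all probes, 1654, were 3610 with normexp (628 higher and 2982 lower, against 802 and 852) and 995 with detection on all 6 arrays (295 and 700), and from 1069 to 2442 when single arrays were left out. The split was 768 higher and 350 lower without 2T-p190-B-/- replicate 1, and 738 and 331 without 2T-p190-B-/- replicate 2. It leaned the other way, to 1026 and 1416, without 2T-WT replicate 2. The 4 member probes called unadjusted (2 higher and 2 lower) were 8 with normexp (2 and 6), 7 without a filter, 1 with a slide block and 0 to 5 without single arrays. Probes whose groups do not overlap, 1138 higher and 2948 lower, were 1463 and 2371 after quantile normalization and 843 and 5116 with normexp, and for members 2 and 3 became 2 and 11 with normexp. The median difference of ligands, −0.36, was 0.067 after quantile normalization, −0.80 with detection on all 6 arrays, −0.65 without a filter, −0.074 with the mean over a gene's tested probes and −0.21 without Cxcl11, an alternative added after the values were seen. The mean share of member probes detected, 56.6%, was 73.2% by the call of positive and significant signal.

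With a replicate block, which pairs arrays of the same number, 7 member probes were called unadjusted. The labels link samples of the 2 groups by that number only, which may mark a round of isolation. As levels, arrays of the same number correlated at 0.751, 0.756 and 0.702. After each probe's group mean was taken off, these pairs correlated at 0.009, 0.016 and 0.086. By these deviations not every sample correlated best with its own number.

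Ccl12 turned to −0.25 and Ccl7 to −0.71 with normexp, as did Ccl5 to 0.25 and Ccr9 to −0.041. Ccl21b was 0.074 with normexp, 0.048 with the value table, 0.19 with a slide block and −0.56 to 0.19 without single arrays. Ccl25 was 0.19 after quantile normalization and 0.22 with normexp, and Cxcl11 was 0.091 after quantile normalization. Ccl6 was 0.36 with a slide block. Ccl8 was 0.067 after quantile normalization, 0.093 with the value table and −0.35 to 0.26 without single arrays. Cxcl12 was 0.13 after quantile normalization, 0.12 with the value table, 0.70 with a slide block and −0.52 to 0.89 without single arrays. Cxcr2 was 0.014 with normexp and −0.96 to 0.054 without single arrays.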
